A study of Mus musculus with 24 samples.

Results

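The 33 genes described here encode glucose transporters, the enzymes of glycolysis, the enzyme and carriers of lactate, the kinases that hold back pyruvate oxidation, and HIF-1α with 5 genes that HIF-1 is known to induce. They were picked by symbol from a list of the pathway, with earlier results of these data known. All 33 were found among the 54532 features of the count table and among the 14692 genes that passed the filter on low counts. Poly(A) RNA of mouse peritoneal macrophages was sequenced in 24 libraries, 4 for each of 6 groups. M0 cells are labelled as controls, M1 cells received LPS and IFN-γ, and M2 cells received IL4. Each of these 3 states was also prepared with ONX-0914, which blocks LMP7 (PSMB8), a catalytic subunit of the immunoproteasome, so the groups are M0, M0 with ONX-0914, M1, M1 with ONX-0914, M2 and M2 with ONX-0914. Every library pools cells of 2 to 3 mice, 50000 cells in all, and the p-values measure the spread between these pools. The sources used here do not give strain, sex, age, dose or treatment time, and no group is described as carrying an altered allele.

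Glycolysis splits glucose to pyruvate in the cytosol, and lactate dehydrogenase turns pyruvate into lactate, which monocarboxylate transporters move across the cell membrane together with a proton. Pyruvate dehydrogenase kinases (PDKs) switch off the enzyme that would send pyruvate into the mitochondria. HIF-1 is a transcription factor whose α subunit is hydroxylated by the EGLN enzymes and then degraded by the proteasome when oxygen is present, and it binds short DNA elements with a core of RCGTG (R stands for A or G) at many genes of this pathway. Macrophages that meet LPS are known for raised glycolysis and stabilized HIF-1α, while IL-4 is known for a state that relies more on mitochondrial oxidation. The RNA levels below say nothing of enzyme activity or of HIF-1α protein.

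Total counts ran from 18.2 to 22.9 in units of 1e6 per library. Levels are TMM-scaled counts per 1e6 counts (CPM), listed for replicates 1 to 4 in that order, means are given ± SD over the 4 libraries of a group, and log2 changes ± their standard error. A gene is said to rise, fall or change only at an adjusted p under 0.05 by the edgeR quasi-likelihood test with Benjamini-Hochberg adjustment over all genes tested. M1 replicate 2 stood apart: mitochondrial genes took 0.30% of its counts, and 1.07% to 1.14% of those of the other M1 libraries. Of the 33 members, 23 had their highest M1 value in that library and 5 their lowest. The effect of leaving it out is given where it changed a call on M1 cells, and beside some other results. Sizes moved elsewhere too. With ONX-0914 in M1, leaving it out took Slc2a1 from -0.41 to -0.28, Ldha from -0.90 to -0.81 and Bnip3 from -0.99 to -1.10 on the log2 scale. Summed macrophage markers ran from 9078 to 14607 CPM per library, in all groups. The 5 markers of the M1 state summed to 6.59 ± 0.978 CPM in M0 and 7427 ± 450.3 CPM in M1, and the 5 markers of the M2 state to 200.3 ± 5.19 CPM in M0 and 4060.4 ± 208 CPM in M2. Markers of mesothelial cells and fibroblasts summed to 505 to 804 CPM per library in all groups, with all 7 detected in each group. In pooled cells, fewer cells of a type and less RNA per cell cannot be told apart.

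Against M0, M1 cells had more RNA for the hexose transporters Slc2a6 and Slc2a1, for hexokinases, for the Pfkl and Pfkp forms of phosphofructokinase, for Ldha, for the lactate exporter Slc16a3 and for Hif1a. They had less for Slc2a3, Pdk2 and Aldoc. In M1 against M0, 18 of the 33 members rose, 9 fell and 6 did not pass, while 68.8% of all tested genes were called, 34.6% upward and 34.2% downward. The members' shares were 54.5% upward and 27.3% downward. Their median log2 change was 0.61, beside -0.020 over all genes tested, and 15 of those called moved by at least 1 on the log2 scale. Without M1 replicate 2, 19 members rose and 9 fell. Dendritic cell markers summed to 3.47 ± 0.671 CPM in M0 and 10.3 ± 1.68 in M1, where all 4 that were tested rose, and neutrophil markers to 4.69 ± 0.617 and 9.10 ± 2.85 CPM, with S100a9, Ly6g and Retnlg at 0 counts in both groups. Their part in these results was not tested.

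In M2 cells the largest rises were those of Hk2, Ldha, Pfkfb4 and the carrier Slc16a1. In M2 against M0, 8 members rose, 11 fell and 14 did not pass, where 36.2% of all genes were called, 18.7% upward and 17.5% downward. The median log2 change of the members was -0.040, beside 0.006 over all genes, and 2 of those called moved by at least 1. In M1 against M2, 20 members were higher in M1, 7 were lower and 6 did not pass, where 66.6% of all genes were called, 32.2% upward and 34.4% downward. The comparisons of M1 and M2 with M0 share the M0 libraries, and M1 against M2 shares its libraries with both, so the values stand side by side without a test of their likeness.

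With ONX-0914, most members fell in M1 and in M2 cells, and in M1 Slc16a3, Pdk1, Pfkl, Tpi1, Aldoc and Ankrd37 fell by more than 1 on the log2 scale. In M0, most members did not pass. In M1, 22 members fell, 3 rose (Gpi1, Aldoa and Pkm) and 8 did not pass, where 44.3% of all genes were called, 27.7% downward and 16.6% upward. The members' share downward was 66.7%, and their median log2 change was -0.41, beside -0.081 over all genes. Without M1 replicate 2, 22 fell and 4 rose. With the M1 libraries and their inhibitor libraries fitted alone, 19 members fell and 4 rose, while the share of upward calls among all called genes moved from 37.4% to 51.9%. In M2, 18 members fell, 5 rose (Gpi1, Pfkm, Aldoa, Pgk1 and Pkm) and 10 did not pass, where 36.4% of all genes were called, 18.8% downward and 17.6% upward. In M0, 9 fell, 5 rose (the same 5 symbols as in M2) and 19 did not pass, where 21.0% of all genes were called, 11.4% downward and 9.54% upward. The medians were -0.24 in M2 and -0.073 in M0, beside -0.001 over all genes in each.

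Markers of other cells moved with the inhibitor as well. Summed B cell markers were 109.9 ± 3.48 CPM in M0 and 62.9 ± 2.83 with ONX-0914, 82.1 ± 6.15 and 42.6 ± 2.31 in M1, and 117 ± 4.35 and 64.1 ± 3.23 in M2. The 8 macrophage markers summed to 12489.7 ± 1337 CPM in M1 and 9289 ± 199 with ONX-0914, to 13415 ± 538 and 10909 ± 542 in M2, and to 13249 ± 917 and 11196 ± 473 in M0, and 6, 6 and 3 of the 8 fell there. The M1 state markers summed to 5867 ± 504 CPM in M1 with ONX-0914, where 3 of 5 fell. The M2 state markers summed to 2645 ± 255 CPM in M2 with ONX-0914, where all 5 fell. Mesothelial and fibroblast markers summed in M1 to 662 ± 79.1 CPM without and 588 ± 43.7 with ONX-0914. The 8 neutrophil markers summed in M1 to 9.10 ± 2.85 CPM without and 7.53 ± 0.527 with ONX-0914. Of these, 4 had no count in M1 and 5 had none with ONX-0914, Ly6g in both groups. Ncr1, a marker of NK cells, had no count in the M1 groups, and T and NK cell markers summed to at most 1.15 CPM in any M1 library. The part of these differences in the results on the members was not tested. M1 against M0 and ONX-0914 in M1 share the M1 libraries, so for each gene the level in all groups is given rather than a link between the 2 changes.

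**Figure D1:**
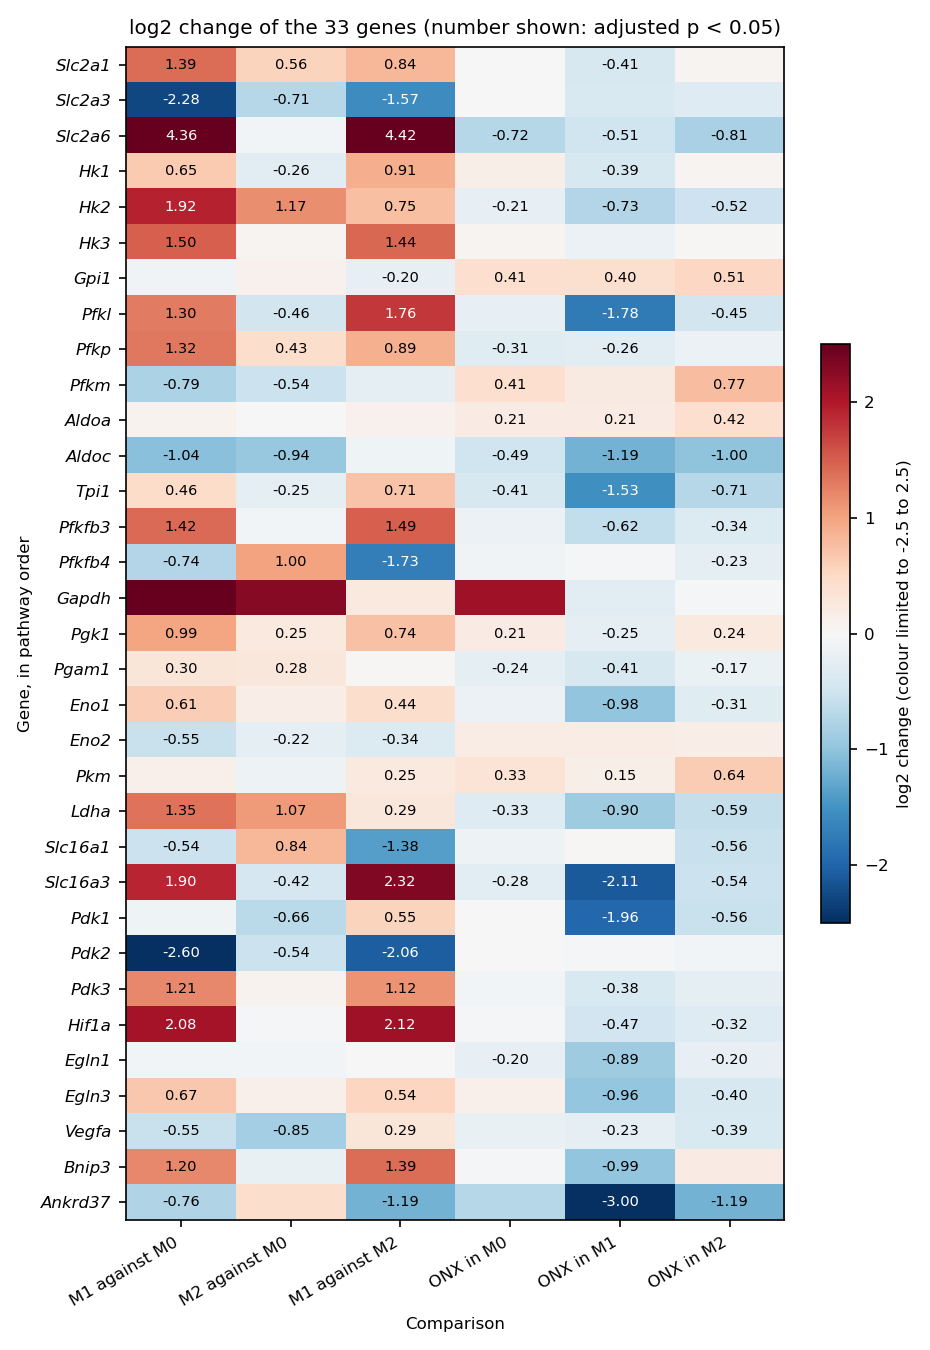
Log2 change of each of the 33 genes (rows, in pathway order) in 6 comparisons (columns), with red for higher, blue for lower, and the value printed where the adjusted p was under 0.05. The M1 columns hold the largest values, from 4.42 for Slc2a6 in M1 against M2 to -3.00 for Ankrd37 with ONX-0914 in M1, and Gapdh is coloured without any call.

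The members that fell most with ONX-0914 in M1, by at least 1.5 on the log2 scale, are shown by the 250 bases before their RefSeq start on build GRCm38.p6, because these are the windows in which the HIF core motif was searched. Each is written 5′ to 3′ on the gene's own strand, with matches to ACGTG or GCGTG on either strand in capitals; CACGT and CACGC are the same motifs on the other strand, and overlapping matches share letters. The windows are chr8:45999851-46000100 on the minus strand, chr11:120948817-120949066 on the plus strand, chr2:71872974-71873223 on the plus strand, chr10:78009808-78010057 on the minus strand and chr6:124814159-124814408 on the minus strand.
Ankrd37: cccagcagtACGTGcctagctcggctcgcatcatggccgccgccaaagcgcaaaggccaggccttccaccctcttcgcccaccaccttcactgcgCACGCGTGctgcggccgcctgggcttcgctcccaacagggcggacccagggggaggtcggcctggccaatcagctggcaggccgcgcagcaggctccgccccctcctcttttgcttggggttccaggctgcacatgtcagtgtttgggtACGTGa
Slc16a3: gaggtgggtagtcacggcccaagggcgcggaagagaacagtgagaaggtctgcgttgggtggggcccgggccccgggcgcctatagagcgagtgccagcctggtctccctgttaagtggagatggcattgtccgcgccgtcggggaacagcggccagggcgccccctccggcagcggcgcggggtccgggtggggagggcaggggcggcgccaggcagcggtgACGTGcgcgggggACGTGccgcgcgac
Pdk1: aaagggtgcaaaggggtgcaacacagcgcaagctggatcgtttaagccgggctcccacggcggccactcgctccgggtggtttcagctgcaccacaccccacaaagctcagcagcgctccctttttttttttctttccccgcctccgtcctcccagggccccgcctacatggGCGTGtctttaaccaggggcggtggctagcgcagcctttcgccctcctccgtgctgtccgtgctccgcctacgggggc
Pfkl: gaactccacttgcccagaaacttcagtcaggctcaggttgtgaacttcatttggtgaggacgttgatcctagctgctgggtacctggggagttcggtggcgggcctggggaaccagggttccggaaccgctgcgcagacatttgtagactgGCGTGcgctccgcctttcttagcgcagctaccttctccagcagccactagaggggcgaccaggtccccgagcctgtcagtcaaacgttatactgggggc
Tpi1: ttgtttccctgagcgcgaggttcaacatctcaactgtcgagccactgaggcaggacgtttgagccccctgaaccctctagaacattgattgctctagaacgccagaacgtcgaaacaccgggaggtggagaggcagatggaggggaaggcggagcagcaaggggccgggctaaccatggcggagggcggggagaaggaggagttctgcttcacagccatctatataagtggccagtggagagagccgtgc
Ankrd37 has 4 matches, 1 of them 6 bases before the start, Slc16a3 has 2 (27 and 14 bases before it), Pdk1 has 1 (78 bases before) and Pfkl has 1 (99 bases before). Tpi1 has none of these letters in this window. Its log2 change with ONX-0914 in M1 was -1.53, and -1.45 without M1 replicate 2, which would not reach the limit of 1.5. The RefSeq starts are not always the outermost GENCODE starts used for gene positions here. By the GENCODE positions, the windows of Ankrd37, Slc16a3 and Pfkl lie inside the gene, and that of Tpi1 lies partly inside it. The window of Pdk1 lies directly before its GENCODE start. Bases before the outermost GENCODE starts of the other members shown here were not all searched. RefSeq windows were found for 32 of the 33 members, all but Slc2a3. A match stood in 25 of the 32 (78.1%), in 19 of the 22 members that fell with ONX-0914 in M1 (86.4%) and in 6 of the other 10. Of all 32851 promoter windows of that length, 38.6% held a match. That set is unlike the members: it holds every RefSeq window and was not limited to genes that passed the count filter. Each member has 1 window, the nearest to its gene start. The list was drawn up partly from known HIF-1 targets, so the share is a description and a match is not a site.

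Glucose transporters come first. Slc2a6 (GLUT6; ENSMUSG00000036067, chromosome 2, 27021363 to 27027998, build GRCm38) encodes a hexose transporter found on intracellular membranes. Slc2a6 in M0 stood at 43.0, 44.5, 45.6 and 41.3 CPM, and with ONX-0914 at 27.9, 27.2, 25.9 and 24.5 CPM. M1 libraries had Slc2a6 at 858, 1072, 819 and 824 CPM without the inhibitor and at 635, 595, 655 and 631 CPM with it. For M2, Slc2a6 levels were 38.8, 46.6, 40.0 and 41.7 CPM without the inhibitor and 21.0, 24.3, 20.5 and 29.3 CPM with it. M1 libraries lay far above all M0 and M2 libraries, with no overlap, and M1 replicate 2 was the highest. Slc2a6 was 20.5-fold higher (log2 change 4.36 ± 0.098, adjusted p = 4.22e-24) in M1 than in M0, and 4.36 became 4.26 without M1 replicate 2. With ONX-0914 it was 1.65-fold lower (log2 change -0.72 ± 0.093, adjusted p = 1.73e-06) in M0, 1.42-fold lower (log2 change -0.51 ± 0.084, adjusted p = 1.84e-05) in M1 and 1.75-fold lower (log2 change -0.81 ± 0.094, adjusted p = 9.61e-08) in M2, with no overlap in any state. No difference between states passed in the fit to all libraries (difference between M1 and M0 0.22 ± 0.13, adjusted p = 0.252). Without M1 replicate 2 that difference was 0.32, adjusted p = 0.0157, and the one between M1 and M2 was 0.40, adjusted p = 0.00344.

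Slc2a1 (GLUT1) is the broadly expressed glucose carrier. Levels of Slc2a1 were 80.5, 74.0, 79.2 and 77.7 CPM in M0 and 78.6, 77.1, 79.4 and 73.6 CPM in M0 with ONX-0914. Slc2a1 reached 187, 257, 209 and 165 CPM in M1 and 159, 153, 149.8 and 155 CPM in M1 with ONX-0914. Slc2a1 levels in M2 were 115, 121, 119 and 103 CPM, against 124, 122, 122 and 111 CPM in M2 with ONX-0914. The 4 groups of M1 and M2 all lay above the M0 groups, and the M1 libraries lay above those with ONX-0914. Slc2a1 was 2.63-fold higher (log2 change 1.39 ± 0.085, adjusted p = 2.46e-14) in M1 and 1.47-fold higher (log2 change 0.56 ± 0.084, adjusted p = 5.63e-06) in M2 than in M0. ONX-0914 lowered it in M1 (-0.41 ± 0.083, adjusted p = 0.000206), and the values were -0.013 ± 0.084 in M0 and 0.065 ± 0.083 in M2. The effect in M1 differed from that in M0 by -0.40 ± 0.12 (adjusted p = 0.0181) and from that in M2 by -0.47 ± 0.12 (adjusted p = 0.00644). With the libraries of each comparison fitted alone, neither passed (-0.30, adjusted p = 0.11, and -0.36, adjusted p = 0.0916).

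Slc2a3 (GLUT3), a carrier with high affinity for glucose, was low throughout. Slc2a3 was at 3.71, 4.21, 4.30 and 4.18 CPM in the M0 libraries and at 4.74, 3.91, 4.29 and 3.46 CPM with ONX-0914. In M1, Slc2a3 was at 0.891, 0.968, 0.750 and 0.755 CPM, and with ONX-0914 at 0.750, 0.719, 0.356 and 0.711 CPM. In M2, Slc2a3 was at 2.25, 2.40, 2.51 and 2.84 CPM, and with ONX-0914 at 1.96, 1.91, 1.89 and 2.23 CPM. Every M1 library lay below every M0 and M2 library. Slc2a3 was 4.87-fold lower (log2 change -2.28 ± 0.17, adjusted p = 3.91e-12) in M1 and 1.64-fold lower (log2 change -0.71 ± 0.14, adjusted p = 0.000187) in M2 than in M0, with 53 counts over the 4 M1 libraries. No effect of ONX-0914 passed in any state. Per kb of exon, the share of Slc2a6 in the summed level of these 3 transporters was 37.4% ± 1.38 in M0, 82.7% ± 1.51 in M1 and 28.3% ± 1.88 in M2, and that of Slc2a1 was 61.1% ± 1.44, 17.3% ± 1.51 and 70.9% ± 1.95.

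Hexokinases trap glucose in the cell by phosphorylation. Hk3 was by far the most abundant of the 3 per kb of exon, with a share from 88.3% ± 0.295 in M2 to 94.4% ± 0.138 in M1 with ONX-0914. Hk3 in M0 stood at 901, 852, 878 and 871 CPM, and with ONX-0914 at 918, 953, 900.3 and 882 CPM. M1 libraries had Hk3 at 2357, 2879, 2424 and 2228 CPM without the inhibitor and at 2344, 2227, 2256 and 2161 CPM with it. For M2, Hk3 levels were 900.3, 929.9, 918 and 902 CPM without the inhibitor and 929.8, 960.5, 961 and 849 CPM with it. The M1 groups lay above the other 4, and within M1 the libraries with and without inhibitor overlapped. Hk3 was 2.82-fold higher (log2 change 1.497 ± 0.061, adjusted p = 2.57e-18) in M1 than in M0, and none of its effects of ONX-0914 passed in the fit to all libraries (in M1, log2 change -0.14 ± 0.059, adjusted p = 0.062). The value in M1 passed with the replicate block (-0.13, adjusted p = 0.0434) and without M1 replicate 1 (-0.16, adjusted p = 0.0455) or 4 (-0.18, adjusted p = 0.0137), and without replicate 4 its difference from M0 passed too (-0.24, adjusted p = 0.0346).

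Hk2 (ENSMUSG00000000628, chromosome 6, 82725025 to 82774454), known as a HIF-1 target, rose in both polarized states. Levels of Hk2 were 71.3, 64.4, 65.0 and 68.6 CPM in M0 and 58.6, 57.8, 58.4 and 57.3 CPM in M0 with ONX-0914. Hk2 reached 239, 294, 271 and 216 CPM in M1 and 161, 157, 153 and 144 CPM in M1 with ONX-0914. Hk2 levels in M2 were 147, 152, 156 and 149.98 CPM, against 102, 105, 108 and 108 CPM in M2 with ONX-0914. The M1 libraries were highest, the M2 libraries and the M1 libraries with ONX-0914 lay near 150 CPM, and the M0 groups were lowest. Hk2 was 3.79-fold higher (log2 change 1.92 ± 0.067, adjusted p = 8.34e-20) in M1 and 2.25-fold higher (log2 change 1.17 ± 0.066, adjusted p = 6.04e-14) in M2 than in M0. With ONX-0914 it was 1.66-fold lower (log2 change -0.73 ± 0.065, adjusted p = 4.96e-10) in M1 and 1.43-fold lower (log2 change -0.52 ± 0.065, adjusted p = 3.54e-07) in M2, without overlap, and 1.16-fold lower (log2 change -0.21 ± 0.067, adjusted p = 0.0218) in M0. The call in M0 was lost without M0 replicate 1 (-0.19, adjusted p = 0.0762) and without M0 with ONX-0914 replicate 4 (-0.21, adjusted p = 0.0515). Between M1 and M0 the effect differed by -0.51 ± 0.093 (adjusted p = 0.000185). The one between M2 and M0 did not pass (-0.30 ± 0.093, adjusted p = 0.0505), and it passed without M1 replicate 2 (-0.30, adjusted p = 0.00481), without M0 replicate 1, M1 replicate 1 or M1 replicate 4, with DESeq2 size factors, by the DESeq2 Wald test, with at least 1 CPM in 4 libraries and with those 16 libraries fitted alone.

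Hk1 was at 73.0, 73.7, 71.3 and 81.6 CPM in the M0 libraries and at 79.5, 89.1, 82.0 and 80.2 CPM with ONX-0914. In M1, Hk1 was at 106, 140.2, 120.3 and 104 CPM, and with ONX-0914 at 83.8, 91.0, 96.4 and 87.4 CPM. In M2, Hk1 was at 60.1, 59.9, 68.1 and 62.7 CPM, and with ONX-0914 at 63.8, 71.3, 66.0 and 61.6 CPM. Hk1, the housekeeping hexokinase, was higher in M1 than in M0 (log2 change 0.65 ± 0.076, adjusted p = 1.82e-08) and lower in M2 (-0.26 ± 0.076, adjusted p = 0.00908), and its M1 libraries lay above all others. ONX-0914 lowered Hk1 in M1 (-0.39 ± 0.076, adjusted p = 0.000117). This differed from the effects in M0 (-0.53 ± 0.11, adjusted p = 0.000615) and in M2 (-0.46 ± 0.11, adjusted p = 0.00412; -0.35, adjusted p = 0.0553 with those 16 libraries fitted alone).

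In upper glycolysis, phosphofructokinase, which commits the sugar to breakdown, is made from 3 genes. Pfkl (ENSMUSG00000020277, chromosome 10, 77986947 to 78010083), the liver form, carried the largest change with the inhibitor among them. Pfkl in M0 stood at 85.0, 87.3, 87.1 and 84.0 CPM, and with ONX-0914 at 75.8, 78.9, 71.6 and 72.3 CPM. M1 libraries had Pfkl at 191, 261, 216 and 178 CPM without the inhibitor and at 61.0, 70.6, 62.9 and 52.1 CPM with it. For M2, Pfkl levels were 56.6, 62.4, 63.6 and 67.2 CPM without the inhibitor and 45.1, 49.2, 47.9 and 40.3 CPM with it. Without ONX-0914 the M1 libraries were the highest of all, and with it they fell below the M0 libraries. Pfkl was 2.46-fold higher (log2 change 1.30 ± 0.091, adjusted p = 6.39e-13) in M1 than in M0, and it was 3.43-fold lower (log2 change -1.78 ± 0.093, adjusted p = 1.54e-14) in M1 with ONX-0914 than without. In M2 it was 1.38-fold lower (log2 change -0.46 ± 0.092, adjusted p = 0.00023) than in M0, and 1.37-fold lower (log2 change -0.45 ± 0.094, adjusted p = 0.000362) with ONX-0914, while in M0 the effect did not pass (log2 change -0.20 ± 0.091, adjusted p = 0.122). The M0 libraries with ONX-0914 all lay below those without it. There the fall passed with no filter on low counts (-0.21, adjusted p = 0.0459), without M1 replicate 2 (-0.20, adjusted p = 0.0227) and with the M0 libraries alone (-0.19, adjusted p = 0.00335). In M1 the effect differed from that in M0 by -1.58 ± 0.13 (adjusted p = 1.74e-09) and from that in M2 by -1.32 ± 0.13 (adjusted p = 5.76e-08). Without M1 replicate 2 the change with ONX-0914 in M1 was -1.66.

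Pfkp, the platelet form, rose in M1 and M2 and fell little with the inhibitor. Levels of Pfkp were 149, 136, 144 and 134 CPM in M0 and 116, 119, 109 and 112 CPM in M0 with ONX-0914. Pfkp reached 346, 386, 371 and 306 CPM in M1 and 329.8, 293, 285 and 268 CPM in M1 with ONX-0914. Pfkp levels in M2 were 191, 189, 190.4 and 191 CPM, against 171, 166, 174 and 172 CPM in M2 with ONX-0914. The M1 groups overlapped each other and lay above the other groups. Pfkp was 2.498-fold higher (log2 change 1.32 ± 0.064, adjusted p = 1.37e-16) in M1 and 1.35-fold higher (log2 change 0.43 ± 0.063, adjusted p = 3.43e-06) in M2 than in M0. It fell with ONX-0914 in M0 (-0.31, adjusted p = 0.000818) and in M1 (-0.26, adjusted p = 0.00122, and -0.17, adjusted p = 0.14 with those 8 libraries fitted alone). By level per kb the share of Pfkl in the 3 genes was 53.3% ± 2.04 in M1 and 28.2% ± 2.21 with ONX-0914, while that of Pfkp was 44.6% ± 2.12 and 67.1% ± 2.89. The length used joins all annotated exons, 13401 bases for Pfkp and 6675 for Pfkl. Their longest protein-coding transcripts have 4145 and 3730 bases. Which of Pfkl and Pfkp has the larger share within a group therefore depends on the length used. Exons of Pfkp overlap those of Pitrm1 on the opposite strand over 5.58% of their length, and the sources used here do not give the strand setting of the counts.

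Pfkm was at 7.57, 6.86, 7.72 and 7.70 CPM in the M0 libraries and at 9.62, 10.4, 9.45 and 10.3 CPM with ONX-0914. In M1, Pfkm was at 4.14, 5.40, 4.33 and 3.46 CPM, and with ONX-0914 at 4.05, 6.29, 4.98 and 4.86 CPM. In M2, Pfkm was at 4.58, 4.75, 5.33 and 5.83 CPM, and with ONX-0914 at 9.73, 8.88, 8.29 and 8.13 CPM. Pfkm, the muscle form, was 1.73-fold lower (log2 change -0.79 ± 0.13, adjusted p = 3.93e-06) in M1 and 1.46-fold lower (log2 change -0.54 ± 0.12, adjusted p = 0.00067) in M2 than in M0, and it rose with ONX-0914 in M0 (0.41 ± 0.11, adjusted p = 0.00884) and in M2 (0.77 ± 0.12, adjusted p = 7.63e-06), where no libraries overlapped. Pfkm did not differ between M1 and M2 at the threshold (log2 change -0.25 ± 0.13, adjusted p = 0.101), and without M1 replicate 2 it was lower in M1 (-0.36, adjusted p = 0.0205). The effect in M1 (log2 change 0.22 ± 0.14, adjusted p = 0.201) differed from that in M2 by -0.56 ± 0.18 (adjusted p = 0.0391). That call was lost without any 1 of 9 libraries, M1 replicate 2 among them (-0.44, adjusted p = 0.0932). The others were M1 replicate 3, replicates 1, 3 and 4 of M1 with ONX-0914, replicates 1 and 2 of M2, and replicates 1 and 2 of M2 with ONX-0914. It was also lost with DESeq2 size factors (-0.51, adjusted p = 0.0607), by the DESeq2 Wald test, with no filter on low counts and with those 16 libraries fitted alone (-0.44, adjusted p = 0.191).

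Tpi1 (ENSMUSG00000023456, chromosome 6, 124810586 to 124814296) encodes triosephosphate isomerase, which joins the products of aldolase into a single stream. Tpi1 in M0 stood at 315, 313, 331 and 280.4 CPM, and with ONX-0914 at 240.2, 236, 219 and 239 CPM. M1 libraries had Tpi1 at 393, 490.2, 429 and 391 CPM without the inhibitor and at 148, 157, 152 and 134 CPM with it. For M2, Tpi1 levels were 254, 270.4, 251 and 269 CPM without the inhibitor and 164, 173, 154 and 146 CPM with it. In M1 with ONX-0914 all 4 libraries lay below all M0 and M1 libraries, at about the level of M2 with ONX-0914. Tpi1 was 1.38-fold higher (log2 change 0.46 ± 0.069, adjusted p = 1.29e-06) in M1 than in M0. With ONX-0914 it was 2.88-fold lower (log2 change -1.53 ± 0.071, adjusted p = 1.01e-15) in M1, 1.64-fold lower (log2 change -0.71 ± 0.069, adjusted p = 4.05e-09) in M2 and 1.33-fold lower (log2 change -0.41 ± 0.069, adjusted p = 8.1e-05) in M0. The effect in M1 differed from that in M0 by -1.12 ± 0.098 (adjusted p = 4.77e-09) and from that in M2 by -0.81 ± 0.098 (adjusted p = 1.31e-06). The one between M2 and M0 did not pass (-0.31 ± 0.098, adjusted p = 0.0614), and it passed without M1 replicate 2 (-0.30, adjusted p = 0.00728), without M2 with ONX-0914 replicate 2, with the replicate block (-0.31, adjusted p = 0.0291), with DESeq2 size factors, by the DESeq2 Wald test and with those 16 libraries fitted alone.

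Of the aldolases, which split the sugar into triose phosphates, Aldoa made up over 99% of the level per kb in every group. Levels of Aldoc were 11.2, 12.2, 13.1 and 11.9 CPM in M0 and 8.69, 8.49, 8.08 and 9.10 CPM in M0 with ONX-0914. Aldoc reached 6.11, 7.61, 4.56 and 5.41 CPM in M1 and 1.90, 3.42, 2.73 and 2.37 CPM in M1 with ONX-0914. Aldoc levels in M2 were 4.26, 6.99, 6.49 and 7.52 CPM, against 2.96, 3.36, 3.03 and 3.22 CPM in M2 with ONX-0914. Both polarized groups lay below M0, and each inhibitor group lay below its own control. Aldoc was 2.05-fold lower (log2 change -1.04 ± 0.15, adjusted p = 5.83e-07) in M1 and 1.92-fold lower (log2 change -0.94 ± 0.14, adjusted p = 5.7e-06) in M2 than in M0. With ONX-0914 it fell by 2.28-fold in M1 (-1.19 ± 0.18, adjusted p = 4.03e-06), 2.01-fold in M2 (-1.004 ± 0.16, adjusted p = 1.71e-05) and 1.41-fold in M0 (-0.49 ± 0.14, adjusted p = 0.0108). The effect differed between M1 and M0 by -0.69 ± 0.23 (adjusted p = 0.0306), a call lost without any 1 of 5 libraries, namely M0 replicate 1 (-0.66, adjusted p = 0.0557), M0 with ONX-0914 replicate 4 (-0.66, adjusted p = 0.053), M1 replicate 2 (-0.56, adjusted p = 0.0566) and M1 with ONX-0914 replicates 1 (-0.56, adjusted p = 0.0981) and 4 (-0.66, adjusted p = 0.0651), and lost with those 16 libraries fitted alone (-0.60, adjusted p = 0.0594).

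Gpi1, phosphoglucose isomerase, and Aldoa went the other way with the inhibitor. Gpi1 had 271 ± 7.77 CPM in M0 and 359.8 ± 13.2 with ONX-0914 (SD, n = 4), 254 ± 30.4 and 334 ± 9.11 in M1, and 292 ± 8.30 and 415 ± 19.3 in M2. The libraries did not overlap in any of the 3 states, and the log2 changes were 0.41 ± 0.060, adjusted p = 1.06e-05 in M0, 0.40 ± 0.060, adjusted p = 4.2e-06 in M1 and 0.51 ± 0.060, adjusted p = 1.19e-07 in M2. The difference of Gpi1 between M1 and M0 did not pass in the fit to all libraries (log2 change -0.095 ± 0.060, adjusted p = 0.164), and without M1 replicate 2 it was lower in M1 (-0.18, adjusted p = 0.000956). Aldoa rose with ONX-0914 from 1219.5 ± 48.6 to 1633 ± 98.3 CPM in M2 (0.42 ± 0.068, adjusted p = 1.61e-05). Its smaller rises in M0 (0.21 ± 0.068, adjusted p = 0.0273) and M1 (0.21 ± 0.068, adjusted p = 0.0148) were lost without any 1 of 4 libraries in M0 and without M1 replicate 1 (0.17, adjusted p = 0.0561) or 4 (0.16, adjusted p = 0.0678) in M1. In M0 these were M0 replicates 2 (0.20, adjusted p = 0.0693) and 4 (0.19, adjusted p = 0.0719) and M0 with ONX-0914 replicates 1 (0.18, adjusted p = 0.0921) and 2 (0.21, adjusted p = 0.0538).

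The PFKFB enzymes make and remove fructose 2,6-bisphosphate, the strongest known activator of phosphofructokinase. Pfkfb3 was at 58.2, 60.9, 58.8 and 64.4 CPM in the M0 libraries and at 55.7, 55.0, 55.1 and 53.2 CPM with ONX-0914. In M1, Pfkfb3 was at 151, 169, 181 and 147 CPM, and with ONX-0914 at 97.4, 114, 108 and 104 CPM. In M2, Pfkfb3 was at 58.1, 59.6, 58.1 and 54.8 CPM, and with ONX-0914 at 43.6, 48.5, 44.96 and 44.7 CPM. Pfkfb3, the form that favours its synthesis, lay highest in M1, and the M1 libraries with ONX-0914 stood between those and all M0 and M2 libraries. It was 2.67-fold higher (log2 change 1.42 ± 0.062, adjusted p = 1.36e-17) in M1 than in M0, and 1.53-fold lower (log2 change -0.62 ± 0.061, adjusted p = 3.19e-09) with ONX-0914 in M1 and 1.27-fold lower (log2 change -0.34 ± 0.063, adjusted p = 8.38e-05) in M2. Between M1 and M0 the effect differed by -0.47 ± 0.087 (adjusted p = 0.000234). Its difference from M2 (-0.28 ± 0.087, adjusted p = 0.0342) was lost without any 1 of 6 libraries, with adjusted p of 0.053 to 0.0894 then. These were M1 replicate 3, M1 with ONX-0914 replicates 1 and 4, M2 replicates 1 and 4, and M2 with ONX-0914 replicate 2. It was also lost with DESeq2 size factors (-0.23, adjusted p = 0.0792), by the DESeq2 Wald test, with no filter on low counts and with those 16 libraries fitted alone (-0.16, adjusted p = 0.322).

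Pfkfb4 in M0 stood at 32.6, 34.4, 32.8 and 34.8 CPM, and with ONX-0914 at 30.8, 33.3, 30.3 and 32.8 CPM. M1 libraries had Pfkfb4 at 21.2, 23.7, 18.9 and 17.1 CPM without the inhibitor and at 17.2, 20.4, 21.6 and 18.5 CPM with it. For M2, Pfkfb4 levels were 64.1, 67.9, 70.1 and 66.7 CPM without the inhibitor and 55.6, 58.4, 57.8 and 56.7 CPM with it. Pfkfb4 was highest in M2 and lowest in M1, with no overlap between the states. It was 1.67-fold lower (log2 change -0.74 ± 0.076, adjusted p = 1.6e-09) in M1 and 1.995-fold higher (log2 change 0.997 ± 0.070, adjusted p = 5.49e-12) in M2 than in M0, so that M1 and M2 differed by -1.73 ± 0.074 (adjusted p = 9.94e-18). By level per kb, Pfkfb3 made up 53.7% ± 0.496 of the pair in M0, 83.7% ± 1.97 in M1 and 35.6% ± 1.08 in M2. ONX-0914 lowered Pfkfb4 in M2 (-0.23 ± 0.068, adjusted p = 0.00803). Its difference from M1 (0.18 ± 0.10, adjusted p = 0.31) passed without M1 replicate 2 (0.26, adjusted p = 0.0491).

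**Figure D2:**
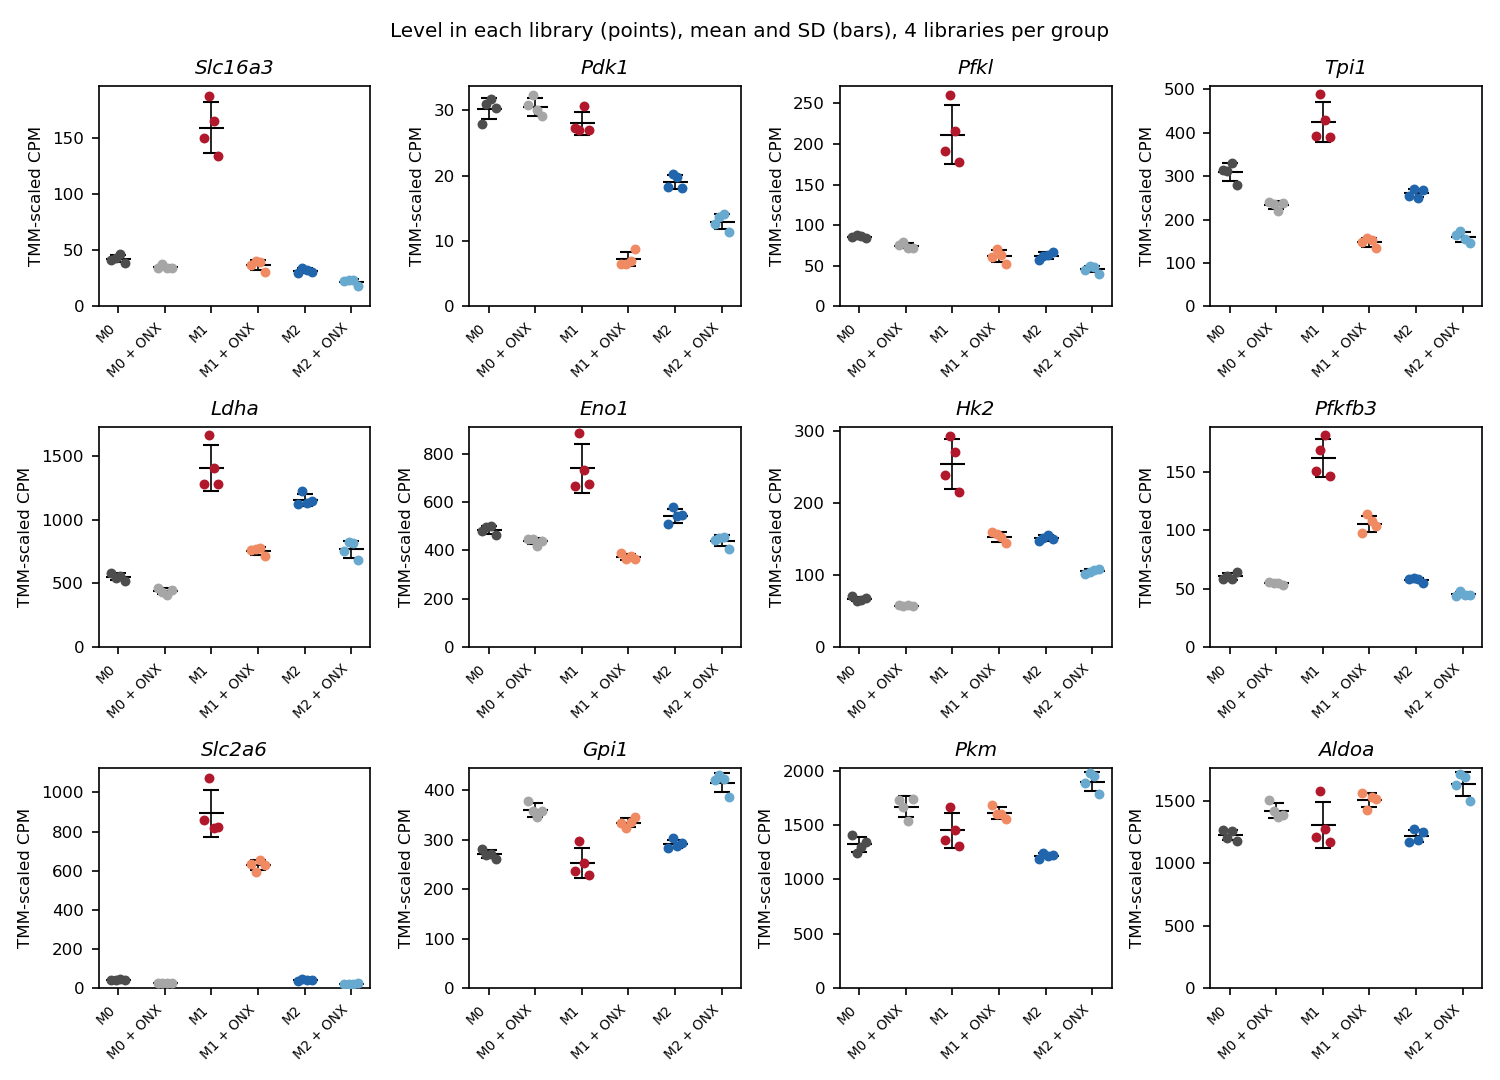
Level of 12 genes in CPM (vertical axes, from 0) in each of the 24 libraries by group (points), with the mean and SD of 4 libraries (bars). For Slc16a3, Pdk1, Pfkl and Tpi1 the M1 libraries with ONX-0914 lie below all M1 libraries without it, and for Gpi1 the inhibitor groups lie above their controls in each state.

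Lower glycolysis begins with Gapdh, whose counts could not be read as its expression. The M0 libraries had Gapdh at 5.74, 6.27, 4.87 and 6.17 CPM, while M0 with ONX-0914 replicate 4, M1 replicate 1, and replicate 3 of M1 with ONX-0914, of M2 and of M2 with ONX-0914 lay between 77.5 and 106 CPM. The other 19 libraries lay between 2.85 and 10.6 CPM. In the transcript of Gapdh, 78.0% of 100-base windows also occur in other genes, 82 of those 86 genes being pseudogenes, and of 12409 features above 1 CPM Gapdh itself was the only 1 at least 2-fold higher in those 5 libraries throughout. No comparison of Gapdh passed in the fit to all libraries (M1 against M0 log2 change 2.53 ± 1.30, adjusted p = 0.0867; 2.82, adjusted p = 0.0434 without M1 replicate 2; 2.48, adjusted p = 0.019 with those 8 libraries alone; 2.51, adjusted p = 3.34e-06 with no filter on low counts), and nothing is read from it here.

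Pgk1, phosphoglycerate kinase, makes the first ATP of the payoff phase. Levels of Pgk1 were 295, 282, 294 and 276 CPM in M0 and 357, 332, 307 and 334 CPM in M0 with ONX-0914. Pgk1 reached 549.9, 611, 563 and 550 CPM in M1 and 493, 477, 474 and 472 CPM in M1 with ONX-0914. Pgk1 levels in M2 were 342, 366, 331 and 324 CPM, against 399, 422, 396 and 387 CPM in M2 with ONX-0914. The M1 groups lay above the M0 and M2 groups. Pgk1 was 1.98-fold higher (log2 change 0.99 ± 0.052, adjusted p = 1.09e-15) in M1 and 1.19-fold higher (log2 change 0.25 ± 0.052, adjusted p = 0.000378) in M2 than in M0. With ONX-0914 it rose in M0 (0.21 ± 0.052, adjusted p = 0.00364) and M2 (0.24 ± 0.052, adjusted p = 0.000644) and fell in M1 (-0.25 ± 0.052, adjusted p = 0.000292), without overlap in each case. In M1 the effect differed from that in M0 by -0.46 ± 0.073 (adjusted p = 3.96e-05) and from that in M2 by -0.48 ± 0.073 (adjusted p = 3.21e-05). Its counts are uncertain, since 67.03% of its 100-base windows also occur in 3 other genes, 2 of them pseudogenes.

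Eno1 encodes enolase 1, which makes phosphoenolpyruvate. Eno1 was at 481, 495, 501 and 462 CPM in the M0 libraries and at 446, 448, 419 and 438 CPM with ONX-0914. In M1, Eno1 was at 665, 883, 730.4 and 674 CPM, and with ONX-0914 at 390.1, 366, 376 and 363 CPM. In M2, Eno1 was at 508, 579, 541 and 546 CPM, and with ONX-0914 at 443, 452, 454 and 406 CPM. Without the inhibitor the M1 libraries lay above all M0 and M2 libraries, and with it they lay below all of them. Eno1 was 1.52-fold higher (log2 change 0.61 ± 0.067, adjusted p = 5.75e-09) in M1 than in M0 and 1.98-fold lower (log2 change -0.98 ± 0.067, adjusted p = 2.98e-12) in M1 with ONX-0914 than without, and it also fell in M2 (-0.31 ± 0.066, adjusted p = 0.000548). Its fall with ONX-0914 in M0 and its rise from M0 to M2 did not pass in the fit to all libraries, though neither pair of groups overlapped. Without M1 replicate 2 both passed (-0.15, adjusted p = 0.012, and 0.17, adjusted p = 0.00282). Both also passed with the libraries of each comparison alone (-0.14, adjusted p = 0.0192, and 0.15, adjusted p = 0.00977), and the rise passed with the replicate block (0.17, adjusted p = 0.0343). The effect in M1 differed from those in M0 (-0.84 ± 0.094, adjusted p = 2.8e-07) and M2 (-0.67 ± 0.094, adjusted p = 1.17e-05). Of its 100-base windows, 59.0% also occur in 4 other genes, Eno1b most of all. Eno2, the neuronal enolase, was a smaller part of the pair and fell in M1, from 53.5 ± 4.64 to 36.5 ± 2.12 CPM (-0.55 ± 0.082, adjusted p = 1.02e-06), and in M2, to 46.0 ± 5.11 CPM (-0.22 ± 0.079, adjusted p = 0.0342). The M2 call was lost without M0 replicate 4 (-0.15, adjusted p = 0.159), M2 replicate 2 (-0.16, adjusted p = 0.119) or M2 replicate 4 (-0.20, adjusted p = 0.0766). Without M1 replicate 2, Eno2 was higher with ONX-0914 in M1 (0.21, adjusted p = 0.0455, and 0.18 ± 0.083 with every library, adjusted p = 0.0836).

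Pgam1, phosphoglycerate mutase, moved little: 483 ± 7.96 CPM in M0, 596 ± 39.2 in M1 and 587 ± 25.1 in M2 (log2 changes 0.30 ± 0.058, adjusted p = 3.95e-05 and 0.28 ± 0.058, adjusted p = 0.0003). It fell with ONX-0914 to 409 ± 19.0 CPM in M0 (-0.24 ± 0.058, adjusted p = 0.00345), 449.9 ± 24.7 in M1 (-0.41 ± 0.058, adjusted p = 1.83e-06) and 522 ± 39.3 in M2 (-0.17 ± 0.058, adjusted p = 0.0218). The call in M2 was lost without M2 replicate 2 (-0.13, adjusted p = 0.109) or M2 with ONX-0914 replicates 1 (-0.16, adjusted p = 0.0565) or 4 (-0.12, adjusted p = 0.107). The difference of its effects between M1 and M2 (-0.24 ± 0.082, adjusted p = 0.0543) passed without M1 replicate 2 (-0.21, adjusted p = 0.0484) and with the replicate block (-0.23, adjusted p = 0.0351). Pgam1 shares 39.7% of its windows with pseudogenes.

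Pkm encodes pyruvate kinase, the enzyme of the last step to pyruvate. Pkm in M0 stood at 1408, 1244, 1296 and 1347 CPM, and with ONX-0914 at 1735, 1665, 1533 and 1738 CPM. M1 libraries had Pkm at 1364, 1670.4, 1458 and 1309 CPM without the inhibitor and at 1685, 1604, 1606 and 1556 CPM with it. For M2, Pkm levels were 1189.6, 1242, 1212 and 1228 CPM without the inhibitor and 1883, 1979, 1947 and 1783 CPM with it. In M2 and M0 the libraries with ONX-0914 lay above those without it, and in M1 they overlapped. With ONX-0914 Pkm was 1.56-fold higher (log2 change 0.64 ± 0.062, adjusted p = 3.79e-09) in M2 and 1.26-fold higher (log2 change 0.33 ± 0.062, adjusted p = 0.000248) in M0. Its rise in M1 (0.15 ± 0.062, adjusted p = 0.0466) was lost without any 1 of 13 libraries, with values then of 0.11 to 0.16. These were M0 replicate 3, M0 with ONX-0914 replicate 2, replicates 1, 3 and 4 of M1, replicates 1, 2 and 3 of M1 with ONX-0914, replicates 1, 3 and 4 of M2, and replicates 1 and 3 of M2 with ONX-0914. The effect in M2 differed from that in M0 by 0.31 ± 0.087 (adjusted p = 0.0334), and that in M1 from that in M2 by -0.49 ± 0.088 (adjusted p = 0.000259). The first of these was lost with DESeq2 size factors (0.28, adjusted p = 0.0511) and without any 1 of 10 libraries, with adjusted p then of 0.0515 to 0.0863. These were replicates 1 and 4 of M0, replicates 2 and 3 of M0 with ONX-0914, replicates 1, 3 and 4 of M2, and replicates 1, 2 and 3 of M2 with ONX-0914. Pkm and the unclassified gene Gm49759 overlap on the same strand over 15.3% of the Pkm exons, and the counts do not tell the PKM1 and PKM2 splice forms apart.

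Ldha (ENSMUSG00000063229, chromosome 7, 46841475 to 46855627) makes lactate from pyruvate and is a textbook HIF-1 target. Levels of Ldha were 583, 542, 562 and 519 CPM in M0 and 462, 435, 407 and 452 CPM in M0 with ONX-0914. Ldha reached 1276, 1663, 1406 and 1282 CPM in M1 and 766, 768, 777 and 713 CPM in M1 with ONX-0914. Ldha levels in M2 were 1119.5, 1225, 1128 and 1143 CPM, against 754, 824, 814 and 682 CPM in M2 with ONX-0914. The M1 and M2 libraries lay above all M0 libraries, and each inhibitor group lay below its control group. Ldha was 2.55-fold higher (log2 change 1.35 ± 0.072, adjusted p = 1.61e-15) in M1 and 2.09-fold higher (log2 change 1.07 ± 0.072, adjusted p = 2.46e-12) in M2 than in M0. With ONX-0914 it was 1.86-fold lower (log2 change -0.90 ± 0.072, adjusted p = 7.22e-11) in M1, 1.502-fold lower (log2 change -0.59 ± 0.071, adjusted p = 2.14e-07) in M2 and 1.26-fold lower (log2 change -0.33 ± 0.072, adjusted p = 0.00134) in M0. The effect in M1 differed from that in M0 by -0.57 ± 0.10 (adjusted p = 0.000165). Its difference from M2 (-0.31 ± 0.10, adjusted p = 0.0401) was lost without any 1 of 11 libraries, at an adjusted p then of 0.0503 to 0.0952. These were M1 replicate 3, all replicates of M1 with ONX-0914, replicates 1, 3 and 4 of M2, and replicates 1, 2 and 3 of M2 with ONX-0914. It was also lost with DESeq2 size factors (-0.27, adjusted p = 0.0838), by the DESeq2 Wald test and with those 16 libraries fitted alone (-0.20, adjusted p = 0.295).

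Slc16a3 (ENSMUSG00000025161, chromosome 11, 120948480 to 120960868) encodes MCT4, the monocarboxylate transporter that exports lactate from glycolytic cells. Slc16a3 was at 41.5, 43.2, 47.0 and 38.7 CPM in the M0 libraries and at 34.5, 37.5, 34.5 and 34.2 CPM with ONX-0914. In M1, Slc16a3 was at 149.7, 188, 166 and 134 CPM, and with ONX-0914 at 37.2, 40.2, 39.9 and 30.7 CPM. In M2, Slc16a3 was at 29.5, 34.6, 32.8 and 30.6 CPM, and with ONX-0914 at 22.4, 23.3, 23.8 and 18.3 CPM. The 4 M1 libraries lay far above all others, and those with ONX-0914 overlapped the M0 libraries. Slc16a3 was 3.74-fold higher (log2 change 1.90 ± 0.093, adjusted p = 2.04e-16) in M1 than in M0 and 4.31-fold lower (log2 change -2.11 ± 0.095, adjusted p = 6.17e-16) in M1 with ONX-0914 than without. Without M1 replicate 2 these were 1.82 and -2.02. In M2 it was 1.34-fold lower (log2 change -0.42 ± 0.095, adjusted p = 0.000932) than in M0 and 1.45-fold lower (log2 change -0.54 ± 0.099, adjusted p = 9.18e-05) with ONX-0914. Between M1 and M0 the effect differed by -1.83 ± 0.13 (adjusted p = 2.22e-10) and between M1 and M2 by -1.57 ± 0.14 (adjusted p = 7.52e-09). The small fall in M0 (-0.28 ± 0.095, adjusted p = 0.0383) was lost without any 1 of 6 libraries, at an adjusted p then of 0.058 to 0.132. These were replicates 1, 2 and 3 of M0 and replicates 1, 3 and 4 of M0 with ONX-0914.

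Slc16a1 encodes MCT1, the carrier that moves lactate in either direction. Slc16a1 in M0 stood at 22.8, 22.98, 21.1 and 23.7 CPM, and with ONX-0914 at 22.1, 19.6, 20.6 and 21.2 CPM. M1 libraries had Slc16a1 at 14.8, 14.1, 17.0 and 16.2 CPM without the inhibitor and at 16.3, 17.6, 16.1 and 13.3 CPM with it. For M2, Slc16a1 levels were 41.3, 43.1, 37.2 and 40.1 CPM without the inhibitor and 30.1, 27.4, 28.4 and 24.1 CPM with it. The M2 libraries were highest and the M1 groups lowest, with no overlap between the 3 states. Slc16a1 was 1.78-fold higher (log2 change 0.84 ± 0.078, adjusted p = 1.5e-09) in M2 and 1.46-fold lower (log2 change -0.54 ± 0.084, adjusted p = 2.18e-06) in M1 than in M0. ONX-0914 lowered it in M2 (-0.56 ± 0.077, adjusted p = 1.65e-06), and this differed from M0 (-0.44 ± 0.11, adjusted p = 0.0148) and from M1 (M1 minus M2 0.58 ± 0.12, adjusted p = 0.000848). By level per kb, Slc16a3 made up 60.9% ± 3.01 of the pair in M0, 89.4% ± 1.81 in M1, 66.0% ± 0.914 in M1 with ONX-0914 and 39.6% ± 2.13 in M2.

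**Figure D3:**
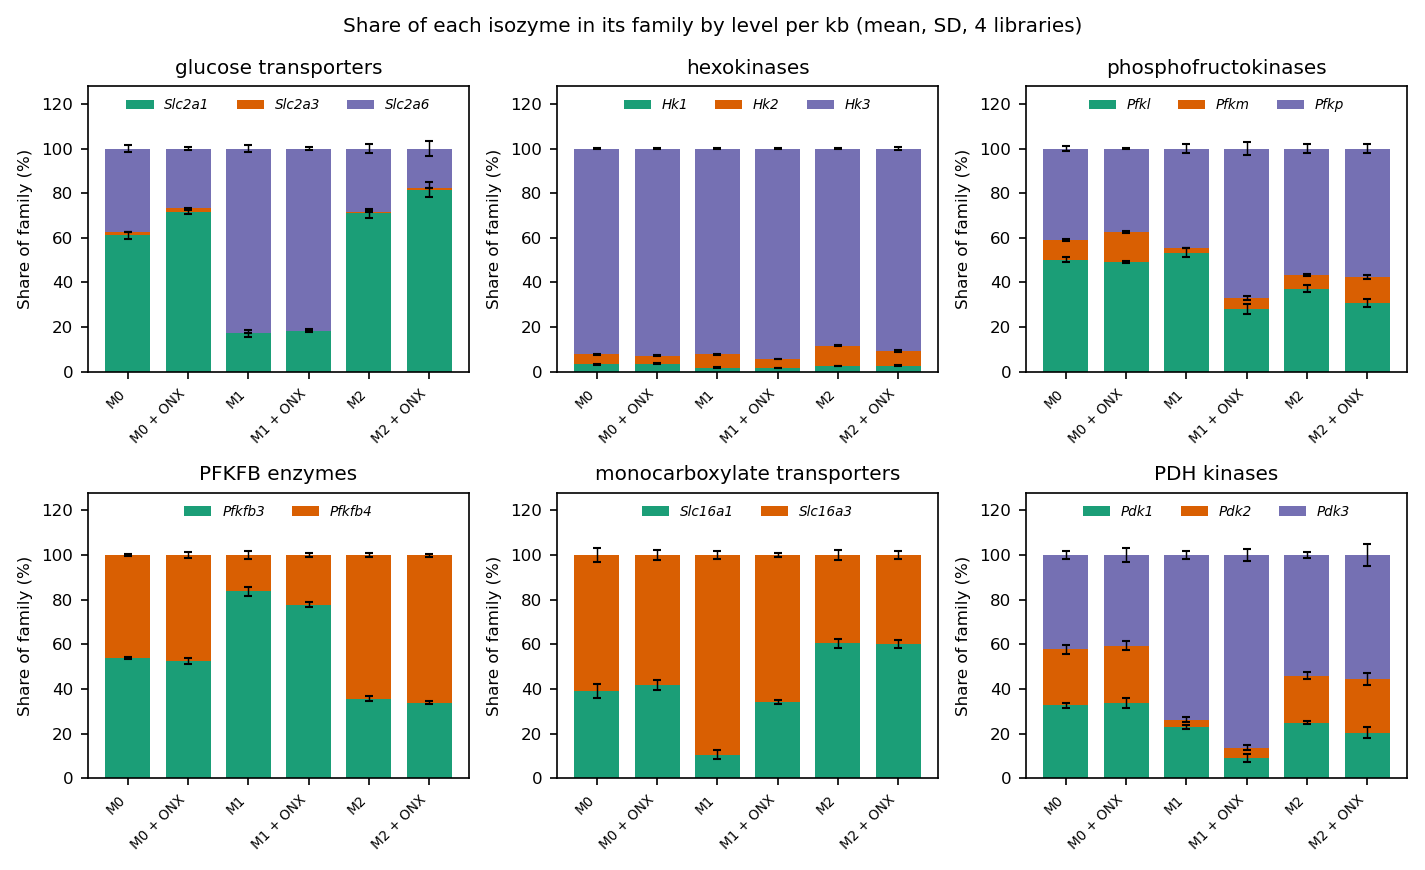
Share of each gene in the summed level per kb of its family (vertical axes, percent) in the 6 groups, as the mean of 4 libraries with SD bars. Slc2a6 and Slc16a3 take most of their families in M1 (82.7% and 89.4%), and the share of Pfkl is 53.3% in M1 and 28.2% in M1 with ONX-0914. Lengths are those of all annotated exons joined (13401 bases for Pfkp, 6675 for Pfkl), and the order of Pfkl and Pfkp depends on them.

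The PDH kinases inactivate pyruvate dehydrogenase and so keep pyruvate out of the mitochondria. Pdk1 (ENSMUSG00000006494, chromosome 2, 71873224 to 71903858), the classic HIF-1 target among them, had the largest fall in M1 with the inhibitor of the 3 kinases. Levels of Pdk1 were 28.0, 31.0, 31.7 and 30.4 CPM in M0 and 30.8, 32.4, 30.02 and 29.2 CPM in M0 with ONX-0914. Pdk1 reached 27.4, 27.0, 30.6 and 27.0 CPM in M1 and 6.498, 6.53, 6.99 and 8.77 CPM in M1 with ONX-0914. Pdk1 levels in M2 were 18.2, 20.3, 19.7 and 18.1 CPM, against 12.6, 13.7, 14.1 and 11.5 CPM in M2 with ONX-0914. The M0 and M1 libraries overlapped, and the 4 M1 libraries with ONX-0914 lay below every other library of the series. The change of Pdk1 from M0 to M1 did not pass (log2 change -0.11 ± 0.077, adjusted p = 0.208). It was 1.58-fold lower (log2 change -0.66 ± 0.078, adjusted p = 9.71e-08) in M2 than in M0, and with ONX-0914 was 3.90-fold lower (log2 change -1.96 ± 0.089, adjusted p = 6.44e-16) in M1 and 1.47-fold lower (log2 change -0.56 ± 0.082, adjusted p = 4.3e-06) in M2. In M0 the libraries with and without the inhibitor overlapped (log2 change 0.016 ± 0.076, adjusted p = 0.916). In M1 the effect differed from that in M0 by -1.98 ± 0.12 (adjusted p = 4.09e-12) and from that in M2 by -1.41 ± 0.12 (adjusted p = 7.17e-09), and that in M2 from that in M0 by -0.57 ± 0.11 (adjusted p = 0.00152).

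Pdk2 was at 9.16, 8.82, 9.27 and 10.7 CPM in the M0 libraries and at 8.93, 9.29, 9.08 and 10.5 CPM with ONX-0914. In M1, Pdk2 was at 1.53, 2.21, 1.44 and 1.13 CPM, and with ONX-0914 at 0.9997, 1.80, 1.72 and 1.66 CPM. In M2, Pdk2 was at 6.97, 6.94, 6.19 and 6.07 CPM, and with ONX-0914 at 6.63, 6.27, 6.55 and 5.65 CPM. Pdk2, a broadly expressed form, fell in M1, where the libraries lay below all M0 and M2 libraries. It was 6.05-fold lower (log2 change -2.60 ± 0.15, adjusted p = 1.04e-14) in M1 than in M0, and -2.79 on the log2 scale without M1 replicate 2, its highest M1 library. In M2 it was 1.45-fold lower (log2 change -0.54 ± 0.12, adjusted p = 0.000663). None of the effects of ONX-0914 on Pdk2 passed.

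Pdk3 in M0 stood at 12.8, 13.6, 12.5 and 12.5 CPM, and with ONX-0914 at 13.2, 13.1, 9.72 and 12.8 CPM. M1 libraries had Pdk3 at 31.1, 26.8, 31.2 and 29.8 CPM without the inhibitor and at 23.8, 22.96, 24.1 and 20.3 CPM with it. For M2, Pdk3 levels were 12.7, 14.7, 13.5 and 13.7 CPM without the inhibitor and 11.4, 13.2, 9.68 and 12.6 CPM with it. Pdk3, a further PDH kinase, rose in M1 without overlap (1.21 ± 0.094, adjusted p = 5.57e-12), and it was 1.30-fold lower (log2 change -0.38 ± 0.091, adjusted p = 0.00117) with ONX-0914 there. That effect did not differ from the one in M0 at the threshold (-0.31 ± 0.13, adjusted p = 0.108), and without M1 replicate 2 it did (-0.35, adjusted p = 0.044). By level per kb the share of Pdk3 in the 3 kinases was 42.1% ± 1.88 in M0, 73.8% ± 1.76 in M1 and 86.2% ± 2.59 in M1 with ONX-0914, and that of Pdk1 was 32.7% ± 1.25, 22.9% ± 0.970 and 9.04% ± 1.84.

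Hif1a (ENSMUSG00000021109, chromosome 12, 73901375 to 73947530) encodes the regulated subunit of HIF-1. Levels of Hif1a were 119, 122, 121 and 128.3 CPM in M0 and 118, 118, 123 and 120 CPM in M0 with ONX-0914. Hif1a reached 594, 326, 628 and 524 CPM in M1 and 397, 392, 369 and 335 CPM in M1 with ONX-0914. Hif1a levels in M2 were 121, 122, 119.9 and 114 CPM, against 97.6, 91.9, 94.6 and 97.7 CPM in M2 with ONX-0914. The M1 groups lay above all M0 and M2 libraries. M1 replicate 2 was far below the other 3 M1 libraries and below every M1 library with ONX-0914, so the M1 groups overlapped. Hif1a was 4.22-fold higher (log2 change 2.08 ± 0.11, adjusted p = 3.03e-15) in M1 than in M0 (2.25 without M1 replicate 2), while the difference between M2 and M0 did not pass (log2 change -0.040 ± 0.11, adjusted p = 0.824). With ONX-0914 it was 1.39-fold lower (log2 change -0.47 ± 0.11, adjusted p = 0.000925) in M1, which became -0.64, adjusted p = 7.01e-12 without M1 replicate 2 and -0.38, adjusted p = 0.115 with those 8 libraries fitted alone. In M2 all 4 libraries with ONX-0914 lay below all without it, 1.25-fold lower (log2 change -0.32 ± 0.11, adjusted p = 0.0264). That call was lost without M2 replicate 1 (-0.32, adjusted p = 0.0513) or 2 (-0.30, adjusted p = 0.0671) or M2 with ONX-0914 replicate 2 (-0.30, adjusted p = 0.0643) or 3 (-0.32, adjusted p = 0.0535). In M0 the value was -0.031 ± 0.11 (adjusted p = 0.889). The difference of the effects between M1 and M0 (-0.44 ± 0.16, adjusted p = 0.0486) was lost without any 1 of 23 libraries, and it was -0.61, adjusted p = 1.44e-07 without M1 replicate 2, the library whose omission kept it. Without that library the effect in M1 also differed from that in M2 (-0.32, adjusted p = 0.00206), and the effect in M2 from that in M0 (-0.29, adjusted p = 0.00704), neither of which passed in the fit to all libraries (-0.15 ± 0.16 and -0.29 ± 0.16).

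EGLN1 and EGLN3 are the oxygen-dependent hydroxylases that mark HIF-1α for degradation, and both genes are themselves induced by HIF-1. Egln1 was at 48.9, 48.6, 49.4 and 48.2 CPM in the M0 libraries and at 42.5, 41.6, 45.5 and 40.3 CPM with ONX-0914. In M1, Egln1 was at 45.2, 47.1, 50.8 and 42.2 CPM, and with ONX-0914 at 23.99, 29.0, 23.7 and 23.6 CPM. In M2, Egln1 was at 45.5, 44.3, 46.3 and 50.1 CPM, and with ONX-0914 at 41.7, 41.9, 41.1 and 37.5 CPM. Egln1 libraries of M0, M1 and M2 overlapped, and its M1 libraries with ONX-0914 lay below every other library. No difference from M0 passed in either polarized state (M1 log2 change -0.074 ± 0.065, adjusted p = 0.323; M2 log2 change -0.068 ± 0.064, adjusted p = 0.45). With ONX-0914 Egln1 was 1.85-fold lower (log2 change -0.89 ± 0.068, adjusted p = 3.46e-11) in M1, and the effect differed from those in M0 (-0.69 ± 0.094, adjusted p = 5.3e-06) and in M2 (-0.69 ± 0.094, adjusted p = 9.21e-06). Its falls in M0 (-0.20 ± 0.065, adjusted p = 0.0282) and M2 (-0.20 ± 0.065, adjusted p = 0.0177) were lost without any 1 of 6 and of 2 libraries. In M2 these were M2 replicate 4 (-0.16, adjusted p = 0.0778) and M2 with ONX-0914 replicate 4 (-0.16, adjusted p = 0.0765), and in M0 they were replicates 1, 2 and 3 of M0 and replicates 1, 2 and 4 of M0 with ONX-0914, with adjusted p then of 0.0529 to 0.0903. With no filter on low counts both falls were lost as well (-0.21, adjusted p = 0.0602, and -0.20, adjusted p = 0.0546).

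Egln3 in M0 stood at 17.8, 17.5, 18.6 and 19.3 CPM, and with ONX-0914 at 19.4, 21.2, 18.5 and 20.4 CPM. M1 libraries had Egln3 at 27.7, 31.2, 31.2 and 26.5 CPM without the inhibitor and at 15.6, 16.9, 14.7 and 12.6 CPM with it. For M2, Egln3 levels were 20.7, 21.9, 19.0 and 18.7 CPM without the inhibitor and 16.2, 14.6, 14.6 and 15.2 CPM with it. Egln3 was highest in M1, where it was 1.59-fold higher (log2 change 0.67 ± 0.080, adjusted p = 2.64e-08) than in M0, and it was 1.95-fold lower (log2 change -0.96 ± 0.082, adjusted p = 2.5e-10) with ONX-0914 there. In M2 it fell as well (-0.40 ± 0.081, adjusted p = 0.000253), and in M0 the value was 0.12 ± 0.080. Here the effect in M1 differed from that in M0 by -1.08 ± 0.11 (adjusted p = 1.07e-07) and from that in M2 by -0.56 ± 0.12 (adjusted p = 0.00124), and that in M2 from that in M0 by -0.52 ± 0.11 (adjusted p = 0.0043).

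Bnip3, which marks mitochondria for removal, is another HIF-1 target. Levels of Bnip3 were 14.3, 16.5, 16.4 and 12.1 CPM in M0 and 15.4, 13.8, 14.2 and 13.7 CPM in M0 with ONX-0914. Bnip3 reached 36.0, 25.7, 40.0 and 34.1 CPM in M1 and 17.8, 17.7, 17.7 and 15.05 CPM in M1 with ONX-0914. Bnip3 levels in M2 were 11.6, 12.9, 13.8 and 13.6 CPM, against 15.9, 14.3, 15.9 and 13.9 CPM in M2 with ONX-0914. The M1 libraries lay above all others, with replicate 2 the lowest of the 4. Bnip3 was 2.30-fold higher (log2 change 1.20 ± 0.11, adjusted p = 1.04e-10) in M1 than in M0 and 1.99-fold lower (log2 change -0.99 ± 0.11, adjusted p = 2.01e-08) in M1 with ONX-0914 than without. The effect in M1 differed from those in M0 (-0.94 ± 0.15, adjusted p = 5.56e-05) and M2 (-1.20 ± 0.15, adjusted p = 3.72e-06). Its counts are uncertain, because 33.5% of its 100-base windows also occur in 4 other genes.

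Ankrd37 was at 1.93, 1.03, 2.12 and 2.15 CPM in the M0 libraries and at 0.744, 1.13, 1.69 and 0.853 CPM with ONX-0914. In M1, Ankrd37 was at 1.27, 0.830, 1.15 and 1.01 CPM, and with ONX-0914 at 0.1000, 0.180, 0.119 and 0.118 CPM. In M2, Ankrd37 was at 2.02, 3.10, 2.90 and 1.78 CPM, and with ONX-0914 at 1.002, 1.66, 0.893 and 0.744 CPM. Ankrd37, an ankyrin-repeat gene used as a marker of hypoxia, had few counts, with 68 over the 4 M1 libraries and 9 over the 4 with ONX-0914, which did not overlap. It was 8.02-fold lower (log2 change -3.00 ± 0.47, adjusted p = 8.42e-06) with ONX-0914 in M1 and 2.28-fold lower (log2 change -1.19 ± 0.27, adjusted p = 0.00092) in M2, and in M0 the value was -0.71 ± 0.27 (adjusted p = 0.0654). Between M1 and M0 the effect differed by -2.29 ± 0.57 (adjusted p = 0.00476). Its difference from M2 (-1.82 ± 0.58, adjusted p = 0.0343) was lost without any 1 of 8 libraries, at values then of -1.79 to -1.53. These were replicates 1 and 3 of M1, replicates 1, 3 and 4 of M1 with ONX-0914, replicates 1 and 4 of M2, and M2 with ONX-0914 replicate 2. Ankrd37 was lower in M1 than in M0 (-0.76 ± 0.29, adjusted p = 0.0222), a call lost without M0 replicate 3 (-0.68, adjusted p = 0.0591), M0 replicate 4 (-0.66, adjusted p = 0.0672) or M1 replicate 2 (-0.66, adjusted p = 0.0552). Its exons overlap those of Lrp2bp and Ufsp2 on the opposite strand.

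Vegfa, the endothelial growth factor and a HIF-1 target, is the last of the group. It was 96.5 ± 4.67 CPM in M0, 65.8 ± 8.87 in M1 and 53.7 ± 1.42 in M2, and it fell from M0 to M1 (-0.55 ± 0.078, adjusted p = 5.17e-07) and to M2 (-0.85 ± 0.078, adjusted p = 1.21e-09). With ONX-0914 it was at 84.3 ± 10.6 CPM in M0 (log2 change -0.20 ± 0.077, adjusted p = 0.0711), 56.3 ± 1.81 in M1 (-0.23 ± 0.079, adjusted p = 0.0214) and 41.1 ± 2.35 in M2 (-0.39 ± 0.080, adjusted p = 0.000341). The value in M0 passed with the replicate block (-0.20, adjusted p = 0.0373), by the DESeq2 Wald test, with no filter on low counts and without M0 with ONX-0914 replicate 3, M1 replicate 2 (-0.20, adjusted p = 0.0303) or M1 replicate 3. The call in M1 was lost without M1 replicate 3 (-0.13, adjusted p = 0.171), the highest of its group, without M1 with ONX-0914 replicate 4 (-0.21, adjusted p = 0.0598) and with those 8 libraries fitted alone (-0.13, adjusted p = 0.272). All 6 genes of the HIF group fell with ONX-0914 in M1, with a median log2 change of -0.92, where 27.7% of all genes fell and the median was -0.081. With those 8 libraries fitted alone, 4 of the 6 passed, not Hif1a or Vegfa.

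**Figure D4:**
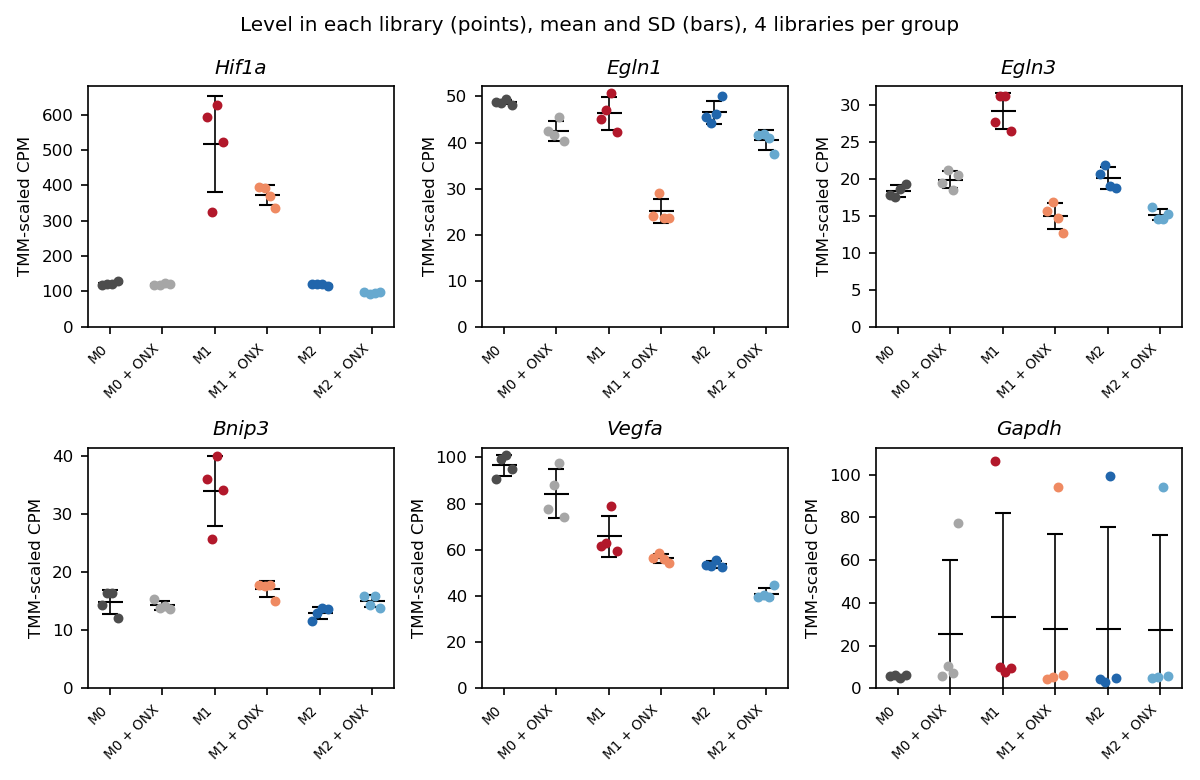
Level in CPM (vertical axes, from 0) of Hif1a, 4 HIF-1 targets and Gapdh in each library by group (points), with the mean and SD of 4 libraries (bars). In Hif1a the low M1 point at 326 CPM is replicate 2, and in Gapdh 1 library of each group but M0 lies at 77.5 CPM or above.

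The effect of ONX-0914 was compared between states by the difference of its log2 changes, each tested as an interaction. Between M1 and M0, 17 of the 33 members had a lower value in M1 and 0 a higher one, where 19.3% of all genes were called, 12.4% with a lower and 6.90% with a higher value in M1. The 17 include Pgk1, which rose in M0 and fell in M1. The median difference was -0.44, beside -0.064 over all genes. Leaving out M1 replicate 2 added Slc2a6 with a higher value in M1 (0.32, adjusted p = 0.0157) and Pdk3 with a lower one (-0.35, adjusted p = 0.044). Aldoc then lost its call (-0.56, adjusted p = 0.0566). Between M1 and M2, 16 members had a lower value in M1 and 1, Slc16a1, a higher one, where 13.5% of all genes were called, 9.68% lower and 3.80% higher. The median was -0.24, beside -0.065. The 16 include Pkm, which rose in both states, and Pfkm, which rose in M2. Leaving out M1 replicate 2 added Slc2a6 (0.40, adjusted p = 0.00344) and Pfkfb4 (0.26, adjusted p = 0.0491) with higher values in M1. It also added Hif1a (-0.32, adjusted p = 0.00206) and Pgam1 (-0.21, adjusted p = 0.0484) with lower ones. Pfkm then lost its call (-0.44, adjusted p = 0.0932). Between M2 and M0, 3 members (Pdk1, Egln3 and Slc16a1) had a lower value in M2 and Pkm a higher one, where 6.17% of all genes were called, 2.74% lower and 3.44% higher. Slc16a3 with -1.83, Pdk1 with -1.98 and Ankrd37 with -2.29 had the largest differences between M1 and M0.

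The split of all called genes into higher and lower moved with the fit. With the 16 libraries of each comparison fitted alone, the higher share of all calls went from 35.8% to 55.7% between M1 and M0, from 28.2% to 57.8% between M1 and M2, and from 55.7% to 45.3% between M2 and M0. Of the members, 14 then differed between M1 and M0, all lower in M1, and 12 between M1 and M2, 11 of them lower in M1. With DESeq2 size factors the higher share between M1 and M2 was 39.2%, and 13 members were lower and 1 higher. Between M2 and M0, 10 members differed with the libraries alone, 9 of them lower in M2, and without M1 replicate 2, which is in neither group but shares the estimate of the spread, 9 differed, 7 of them lower. These comparisons share inhibitor and control libraries of the same state, so their member counts are not independent of each other.

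**Figure D5:**
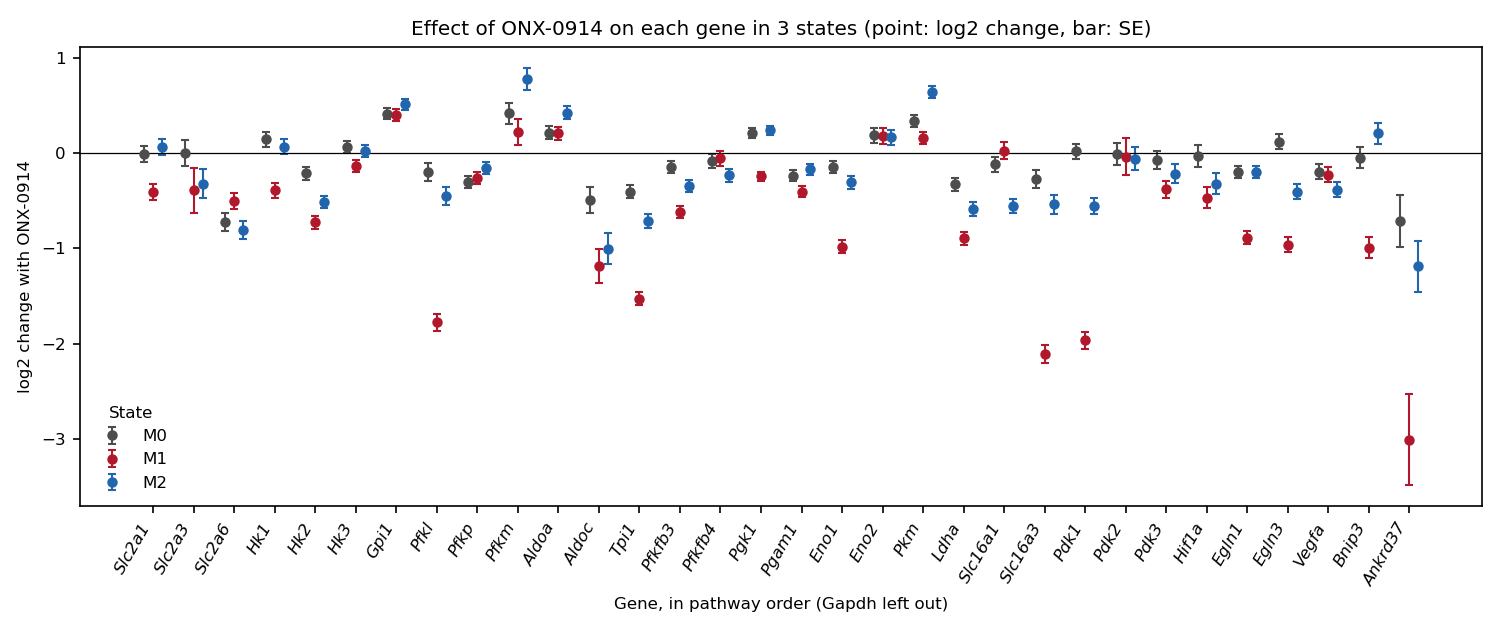
Log2 change with ONX-0914 (vertical axis, point with SE bar) for 32 of the 33 genes in pathway order (horizontal axis), in M0 (grey), M1 (red) and M2 (blue), Gapdh left out. The red points of Pfkl (-1.78), Tpi1 (-1.53), Slc16a3 (-2.11), Pdk1 (-1.96) and Ankrd37 (-3.00) lie lowest, and all 3 points of Gpi1 lie near 0.4 to 0.5.

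Across genes, levels were set side by side per kb of exon. In M0, Aldoa led with 421 ± 14.4 CPM per kb, followed by Pkm (265 ± 14.02), Pgam1 (244 ± 4.01) and Hk3 (238 ± 5.43), the latter pair overlapping, and by Ldha (167 ± 8.18). In M1 the order was Hk3 (671 ± 76.9), Aldoa (449 ± 62.7) and Ldha (425 ± 54.7), the latter pair within their spread, and then Pgam1 (301 ± 19.8), Pkm (290 ± 31.8) and Slc2a6 (278 ± 37.6), which also lay within their spread. In M2, Aldoa (419 ± 16.7) and Ldha (349 ± 14.6) led, ahead of Pgam1 (296 ± 12.7). The exon length used here is that of all annotated exons joined, so the level of a gene with long unused exons is understated.

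Genes of the same pathways outside the 33 were counted from lists, and their values without M1 replicate 2 are not given. For comparison, the shares over all tested genes were 34.6% upward and 34.2% downward in M1 against M0. They were 18.7% and 17.5% in M2 against M0. With ONX-0914 they were 16.6% upward and 27.7% downward in M1, 17.6% and 18.8% in M2, and 9.54% and 11.4% in M0. Of 34 other genes of glycolysis, glucose entry and gluconeogenesis, 23 were tested, and 6 rose and 13 fell in M1 against M0, with a median log2 change of -0.46. The largest called changes were falls of Gapdhs (-2.13 ± 0.49), the carriers Slc2a8 (-1.65 ± 0.14) and Slc16a7 (-1.61 ± 0.10), and Ldhd (-1.56 ± 0.29). In M2 against M0, 3 rose and 2 fell. With ONX-0914, 2 rose and 8 fell in M1 (8.7% and 34.8% of the 23), 2 rose and 4 fell in M2, and 0 rose and 3 fell in M0. Those in M1 were led by Ldhd (-1.32 ± 0.42), Eno1b (-0.78 ± 0.12), Pgm1 (-0.73 ± 0.071) and Txnip, a brake on glucose uptake (-0.66 ± 0.070), and in M0 and M2 by Pck2 (-0.85 ± 0.068 and -0.70 ± 0.068).

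Of 24 other known HIF-1 targets, 23 were tested. In M1 against M0, 13 rose and 8 fell, among them Car12 (4.43 ± 0.42) and Ak4 (3.47 ± 0.11) upward and Cxcr4 downward (-4.77 ± 0.11). In M2 against M0, 7 rose and 9 fell, led by Car12 (3.33 ± 0.46), the transferrin receptor Tfrc (2.85 ± 0.12), Adm (-1.93 ± 0.24) and Ak4 (1.32 ± 0.12). With ONX-0914 in M1, 10 fell and 1 rose, led by Ak4, an adenylate kinase, from 63.6 ± 4.28 to 20.2 ± 2.70 CPM (-1.66 ± 0.10, adjusted p = 2.41e-13). The median of the 23 was -0.12, beside -0.081 over all genes, of which 27.7% fell and 16.6% rose. In M2, 5 fell and 8 rose, among them Ak4 (-1.11 ± 0.11) downward and Lox, lysyl oxidase (0.81 ± 0.096), upward. In M0, 3 fell and 2 rose.

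Of 9 other components of the HIF pathway, 8 were tested. Epas1, which encodes HIF-2α, was at 294 ± 14.2 CPM in M0, 30.4 ± 2.23 in M1 and 441 ± 19.7 in M2, and it fell in M1 (-3.27 ± 0.079, adjusted p = 1.91e-23), where Hif1a rose, and rose in M2 (0.59 ± 0.070, adjusted p = 1.19e-07). ONX-0914 lowered Epas1 in M1 (-0.93 ± 0.083, adjusted p = 6.12e-10), in M2 (-0.74 ± 0.070, adjusted p = 2.58e-09) and in M0 (-0.25 ± 0.070, adjusted p = 0.00968). In M1 against M0, 3 of the 8 rose and 2 fell, among them Vhl, the ligase subunit that recognises hydroxylated HIF-α, upward (0.82 ± 0.056) and Arnt2 downward (-1.74 ± 0.13). With ONX-0914, 5 fell and 1 rose in M1, 3 fell in M2 and 3 fell in M0.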

How the data were processed

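The authors deposited raw counts per Ensembl gene, whole numbers without normalization, in 1 table whose 24 columns name the libraries. FastQC 0.11.9, cutadapt 2.8, Bowtie2 2.2.5, Picard and build mm10 are named in the submitters' processing notes; the sources used here do not give the counting tool, the annotation or the strand setting. Symbols, positions and exon lengths came from GENCODE M21 (GRCm38). A symbol was lacking for 37 features, with 0.0025% of the counts. Of the pair of Ensembl genes with the symbol Aldoa, the one with few counts was not used.

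Tests were run with edgeR 4.0.16 (R 4.3.3): filterByExpr with the 6 groups (14692 genes, 99.927% of the counts), TMM scaling, 1 mean per group, and quasi-likelihood tests on all 24 libraries (18 residual degrees of freedom) with Benjamini-Hochberg adjustment over all genes tested and a threshold of 0.05. Each standard error is the size of the log2 change over the root of its F statistic. The 6 pairwise comparisons and 3 differences of effects were repeated with DESeq2 1.42.0 (size factors; Wald test), no count filter, at least 1 CPM in 4 libraries, a replicate block, the libraries of the comparison alone, and each library left out. The code was tested on simulated counts.

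All 33 members are accounted for. Every library's level is given for members called with a log2 change of at least 1 in size in a pairwise comparison, or called in a difference of effects. Of the other lists, at most 4 called genes per comparison are named; 1 gene that this rule would name is not reported here. The members and lists were chosen with earlier results of these data known. Replicate numbers did not pair libraries between groups. Promoter windows are RefSeq's. Shared sequence was found by looking up every 100-base window of a member's transcript in the transcripts of all other genes.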

Additional observations from a re-analysis of the deposited data

Results flagged for a closer look

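Levels of the 33 genes were screened for outlying libraries in 198 groups of 4 (33 genes in 6 groups) by the gap of 1 library to its nearest neighbour over the range of the group (Dixon's test), and 15 stood out, where chance gives about 1 in 20. Gapdh gave 5 of them, at 77.5 CPM in M0 with ONX-0914 replicate 4 (the others 5.86 to 10.6), 106 in M1 replicate 1, 94.2 in M1 with ONX-0914 replicate 3, 99.4 in M2 replicate 3 and 94.2 in M2 with ONX-0914 replicate 3. Outlying high were Slc2a6 in M1 replicate 2 at 1072 CPM (the others 819 to 858), Slc16a3 in M0 with ONX-0914 replicate 2 at 37.5, Pdk1 in M1 replicate 3 at 30.6, Egln1 in M1 with ONX-0914 replicate 2 at 29.0, and Vegfa in M2 with ONX-0914 replicate 4 at 44.6. Outlying low were Slc2a1 in M2 with ONX-0914 replicate 4 at 111 CPM, Slc2a3 in M1 with ONX-0914 replicate 3 at 0.356, Pfkp in M2 replicate 2 at 188.6 (the others 190.4 to 190.6, a narrow group), Pdk3 in M0 with ONX-0914 replicate 3 at 9.72, and Bnip3 in M1 with ONX-0914 replicate 4 at 15.1. M1 replicate 2, with its low mitochondrial share, gave 1 of the 15.

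The effect of ONX-0914 differed between states by the interaction test in 38 cases in 20 genes. Differences of log2 changes between M1 and M0 were -0.40 for Slc2a1, -0.53 for Hk1, -0.51 for Hk2, -1.58 for Pfkl, -0.69 for Aldoc, -1.12 for Tpi1, -0.47 for Pfkfb3, -0.46 for Pgk1 and -0.84 for Eno1. They were -0.57 for Ldha, -1.83 for Slc16a3, -1.98 for Pdk1, -0.44 for Hif1a, -0.69 for Egln1, -1.08 for Egln3, -0.94 for Bnip3 and -2.29 for Ankrd37. Between M2 and M0 the differences were 0.31 for Pkm, -0.44 for Slc16a1, -0.57 for Pdk1 and -0.52 for Egln3. Between M1 and M2 they were -0.47 for Slc2a1, -0.46 for Hk1, -1.32 for Pfkl, -0.56 for Pfkm, -0.81 for Tpi1, -0.28 for Pfkfb3, -0.48 for Pgk1, -0.67 for Eno1 and -0.49 for Pkm. The others were -0.31 for Ldha, 0.58 for Slc16a1, -1.57 for Slc16a3, -1.41 for Pdk1, -0.69 for Egln1, -0.56 for Egln3, -1.20 for Bnip3 and -1.82 for Ankrd37.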

How the results depend on the processing

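No log2 change of a member that passed changed sign under any alternative run. The split of all called genes did turn with the libraries of the comparison alone, from 2438 higher and 4076 lower to 2481 and 2303 for ONX-0914 in M1, from 1014 and 1820 to 1305 and 1040 between M1 and M0, from 559 and 1422 to 885 and 647 between M1 and M2, and from 505 and 402 to 721 and 869 between M2 and M0. Without 1 library at a time, the number of members called ran from 26 to 28 in M1 against M0, 18 to 22 in M2 against M0, 27 to 28 in M1 against M2, 11 to 19 for ONX-0914 in M0, 23 to 26 in M1 and 21 to 24 in M2. For the differences of effects it ran from 15 to 18 between M1 and M0, 3 to 9 between M2 and M0, and 13 to 20 between M1 and M2. The number of all genes called ran from 660 to 1672 between M2 and M0, where it was 907 with every library, and the highest values there, 9 members and 1672 genes, came without M1 replicate 2. With the libraries of the comparison alone, 10 members and 1590 genes were called between M2 and M0, against 4 and 907. All other totals of members or genes called stayed within 1.5 times; counts in 1 direction moved further in places, as in the splits above.

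Over all libraries left out, 122 values lost a call, 57 gained one and 6949 did neither. The difference of effects for Hif1a between M1 and M0 was also lost with DESeq2 size factors, the Wald test, the replicate block and the libraries alone. The replicate numbers did not pair libraries (correlations of same-numbered deviations from -0.052 to 0.105). With the replicate block, members called were 28 in M1 against M0, 20 in M2 against M0, 27 in M1 against M2, 15, 26 and 24 for ONX-0914 in M0, M1 and M2, and 16 for the difference of effects between M1 and M0, 5 between M2 and M0 and 18 between M1 and M2. Depth limits Ankrd37, Slc2a3 and Pdk2 in M1 most, at 9 to 107 counts in the M1 groups.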

Other observations

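Of 9 genes of the pyruvate dehydrogenase complex and its other regulators, 8 were tested, and with ONX-0914 3 rose and 2 fell in M1, 3 rose and 3 fell in M2, and 2 rose and 0 fell in M0. Over all tested genes, 16.6% rose and 27.7% fell in M1, 17.6% and 18.8% in M2, and 9.54% and 11.4% in M0. Pdhx, the subunit that anchors the E3 enzyme, rose from 19.4 ± 1.04 to 38.3 ± 0.484 CPM in M1 (means ± SD, n = 4; log2 change 0.98 ± 0.069, adjusted p = 4.78e-12), from 18.5 ± 1.48 to 36.0 ± 1.398 in M2 (0.96 ± 0.067, adjusted p = 7.12e-12) and from 17.2 ± 1.66 to 21.5 ± 0.870 in M0 (0.33 ± 0.069, adjusted p = 0.000964). Pdhb, a subunit of the E1 enzyme, rose in M1 from 68.5 ± 4.19 to 115 ± 1.11 CPM (0.75 ± 0.049, adjusted p = 1.41e-12), and Dld, the E3 enzyme, from 109 ± 21.8 to 152 ± 1.99 CPM (0.48 ± 0.088, adjusted p = 6.97e-05). The M1 libraries without ONX-0914 varied more for Dld than those with it, and values without M1 replicate 2 are not given for this list. In M1 against M0, 1 of the 8 rose and 3 fell, led by Pdpr, a regulator of the PDH phosphatase (-1.07 ± 0.080), and in M2 against M0 2 rose and 1 fell. Of all tested genes, 34.6% rose and 34.2% fell in M1 against M0, and 18.7% and 17.5% in M2 against M0.

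All 8 genes of the pentose phosphate pathway, which branches from glycolysis to make NADPH and ribose, were tested. In M1 against M0, 3 rose and 4 fell, with Rpe (1.12 ± 0.12) and Pgd (0.69 ± 0.061) upward and Taldo1, transaldolase, downward from 531 ± 43.5 to 281 ± 15.2 CPM (-0.92 ± 0.058, adjusted p = 5.01e-14). In M2 against M0, 1 rose and 4 fell. With ONX-0914 Taldo1 rose to 482 ± 15.1 CPM in M1 (0.78 ± 0.057, adjusted p = 1.46e-11) and from 445 ± 21.5 to 700.3 ± 28.2 in M2 (0.66 ± 0.057, adjusted p = 5.1e-10). Over the list, 2 rose and 4 fell in M1, 3 rose and 2 fell in M2, and 1 rose and 1 fell in M0. All counts of this list stand beside the shares over all tested genes given in the paragraph before.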
